A study of Mus musculus with 2 samples.

Results

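The genes described here build the acid, protein-degrading compartment of the cell. They were taken by name from the 27031 gene columns of the deposited counts. Names beginning Atp6v0 or Atp6v1 gave 23 columns, names of Cts followed by 1 letter gave 18, and *Lamp1* and *Lamp2* were added, so that 43 genes were followed. Of the 23 Atp6v genes, 9 belong to the V0 sector and 13 to the V1 sector, while *Atp6v1fnb* matches by name only. The 18 cathepsins comprise 14 cysteine, 2 aspartic and 2 serine proteases.

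The vacuolar H+-ATPase (V-ATPase) is a rotary pump that moves protons into lysosomes and endosomes. Its cytosolic V1 sector hydrolyses ATP, and its membrane-embedded V0 sector carries the protons. Cathepsins are proteases made as inactive precursors that mature at low pH, and in macrophages they digest engulfed material and process antigens, while the glycoproteins *Lamp1* and *Lamp2* line the lysosomal membrane.

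The cells came from subcutaneous tumors of MC38, a mouse colon carcinoma line, in female C57BL/6 mice aged 6 to 8 weeks. From implantation the mice received vehicle or telmisartan, a blocker of the type I angiotensin II receptor, at 5 mg/kg by gavage every day, and tumors were taken at day 13. Cells of 5 mice were pooled in each group and CD45+ leukocytes were sorted, so each group was a single pool with no replicates. Both pools went through 1 capture on the BD Rhapsody system (microwells with barcoded beads), control cells carrying Sample Tag 1 and telmisartan cells Sample Tag 2. No difference between the groups could be tested, and every interval given is a 95% interval for counting error alone.

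After filtering, 4535 control and 4434 telmisartan cells remained, with medians of 8689 and 6357.5 unique molecular identifiers (UMIs, counted molecules) per cell. Because the telmisartan cells were shallower, the UMIs of a gene in all cells of a class were added up and are given per 1000000 UMIs of those cells (CPM). UMIs count molecules rather than fragments, so levels of different genes are compared without division by length. Intronic reads were counted too, and the part of gene length in these levels was not tested. Clusters named from marker genes gave 8049 macrophage-like, 663 dendritic-like, 185 T-like and 72 neutrophil-like cells. The naming required markers to be high in the dendritic-like, T-like and neutrophil-like classes, so their levels are no check of it. Macrophage-like cells were those of the remaining clusters, where macrophage markers were detected but 0 or 1 markers were high. *Trac*, of the T cell receptor, stood at 1029 CPM in T-like and 2.51 in macrophage-like cells. *Flt3* of dendritic cells stood at 108 CPM in dendritic-like and 1.16 in macrophage-like cells, and *Cxcr2* of neutrophils at 674 and 1.26 in neutrophil-like and macrophage-like cells.

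Most members had enough UMIs in macrophage-like cells to be compared. In their 38135298 control and 28337437 telmisartan UMIs, 42 of the 43 genes had at least 1 UMI, 30 had at least 100, 24 at least 1000 and 18 at least 10000. Of all 27031 columns 90.6% had at least 1 UMI there, 41.0% at least 100, 24.8% at least 1000 and 3.90% at least 10000, so a single UMI sets no gene apart and the members differ from other genes at the upper limits. *Ctsm* had none, and a count of 3 would correspond to 0.0451 CPM in these cells. The 13 members with fewer than 100 UMIs included the placental cathepsins *Ctsj*, *Ctsq* and *Ctsr*, with 1, 7 and 3 UMIs, and *Ctsg*, a protease of neutrophil granules, with 2. They also included *Atp6v0a4* (48 UMIs), *Atp6v0e2* (1), *Atp6v1b1* (8), *Atp6v1c2* (6), *Atp6v1e2* (6) and *Atp6v1g3* (3), tissue-restricted forms of subunits that have a widely expressed counterpart. The other 2 were *Ctsw* (41) and *Atp6v1fnb* (5).

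The cathepsins far exceeded the pump in transcript number. *Ctss*, an endopeptidase that trims the invariant chain of MHC class II, ranked 21 of the 11073 genes with at least 100 UMIs in macrophage-like cells. *Ctsc*, a dipeptidyl peptidase that activates granule serine proteases, ranked 37, and the endopeptidases *Ctsb* and *Ctsl* ranked 60 and 202. *Lamp1* ranked 237, whereas the most abundant pump gene, *Atp6v0e*, ranked 515. Summed over each family, there were 4.93 cathepsin UMIs for each V-ATPase UMI in control macrophages and 4.71 in telmisartan macrophages. Per cell, cathepsins took a median of 0.979% of all UMIs in control and 0.885% in telmisartan macrophages, and the V-ATPase 0.210% and 0.214%.

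Family sums hardly differed between the groups in macrophage-like cells. The V-ATPase genes together had 2212 CPM in control and 2248 CPM in telmisartan macrophages, a log2 ratio of telmisartan over control of 0.02 (0.01 to 0.04). The cathepsins together had 10909 and 10577 CPM, a log2 ratio of -0.04 (-0.05 to -0.04). All 43 genes together had 14234 and 13886 CPM (-0.04), close to the median of -0.05 over the 11073 genes. These small directions depended on the choice of cells and scale. The V-ATPase sum was at -0.03 when every cell was thinned to 1000 UMIs, and the cathepsin sum was at 0.01 among cells with at most 10% mitochondrial UMIs.

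Single genes spread more widely than the sums. Of the 30 members with at least 100 UMIs, 16 were lower and 14 higher with telmisartan, against 57.2% lower among all 11073 genes, with a median log2 ratio of -0.04 and quartiles of -0.19 and 0.15. Over all genes the median was -0.05 and the quartiles -0.20 and 0.14. By size alone, 7 members were lower by at least 0.25 and 4 were higher by at least 0.25. Of all genes, 19.2% were lower and 16.3% higher by that much, so the share of members past this size was near that of the transcriptome. The counting interval lay below 0 for 14 members, above 0 for 10 and across 0 for 6, while it lay below 0 for 31.6% and above 0 for 22.0% of all genes. With no scaling for depth, as plain UMIs per cell, the all-gene median was -0.46 and 77.0% of genes were lower by at least 0.25, so values on that scale are read against this median. Summed markers of other cell types also differed in macrophage-like cells. Those of neutrophils had 81.8 and 104 CPM (0.34), of fibroblasts 5.11 and 9.74 CPM (0.93), and of epithelial and tumor cells 61.2 and 44.0 CPM (-0.48). In the last list *Cdh1* held 2292 of 2334 control and 1230 of 1247 telmisartan UMIs, so that sum describes 1 gene. *Mmp8* held 2162 of 3120 and 2065 of 2937 UMIs of the neutrophil sum, in which *S100a8* was at 0.02. Sums of T cell (0.26), dendritic (0.23) and plasmacytoid markers (0.40) were higher too. Endothelial markers were at -0.01. The part of marker transcripts in member ratios was not tested.

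**Figure D1:**
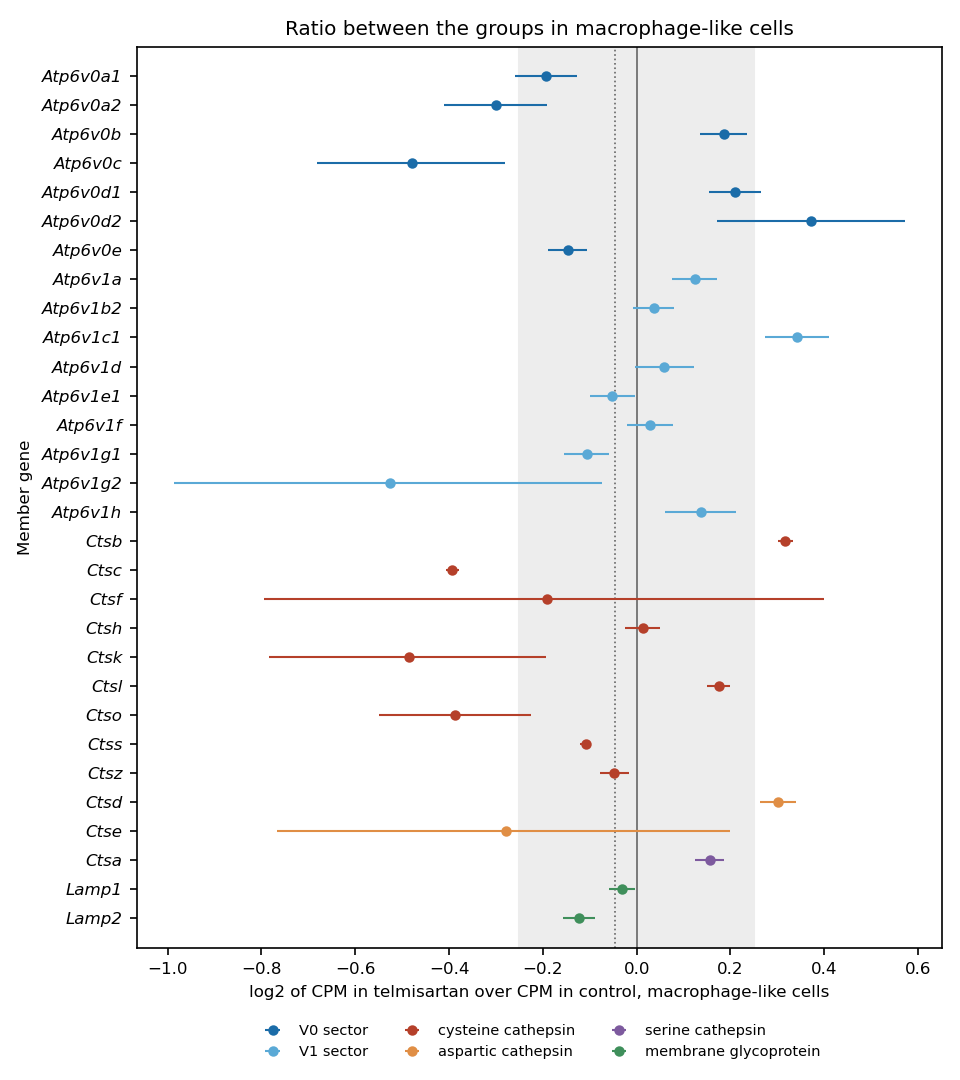
Log2 ratio of telmisartan over control CPM (x axis) for each of the 30 members with at least 100 UMIs in macrophage-like cells (y axis), 1 pool per group, with bars for 95% counting intervals, colors for roles, a grey band from -0.25 to 0.25 and a dotted line at the median of all genes (-0.05). Most members lie within the band, *Ctsb* (0.32), *Ctsd* (0.30), *Atp6v1c1* (0.34) and *Atp6v0d2* (0.37) lie to its right, and *Ctsc* (-0.39) is the most abundant of the 7 to its left (counted as UMIs per cell, all 30 lie below 0).

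In the V0 sector, 4 of 7 measured genes were lower and 3 higher, while 57.2% of all genes were lower. By at least 0.25, 2 were lower and 1 higher, against 19.2% and 16.3% of all genes. The sector sum was 826 CPM in control and 819 CPM in telmisartan macrophages (-0.01, -0.04 to 0.01). The ring of proteolipids that turns with each proton is formed by *Atp6v0c* and *Atp6v0b*. *Atp6v0b* had 177 and 202 CPM (0.19, 0.13 to 0.24). *Atp6v0c* had 593 and 316 UMIs, 15.5 and 11.2 CPM (-0.48, -0.68 to -0.28). Its count is uncertain, because the mouse genome holds near-identical pseudogene copies of this short gene and reads shared with them may not have been counted. *Atp6v0e*, a small membrane subunit and the most abundant gene of the pump, had 299 and 270.2 CPM (-0.15, -0.19 to -0.11).

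The a subunits form the path of the protons and place the pump in different membranes. *Atp6v0a1* had 123 CPM in control and 107 CPM in telmisartan macrophages (-0.19, -0.26 to -0.13). *Atp6v0a2*, a form linked to the Golgi and endosomes, had 47.2 and 38.4 CPM (-0.30, -0.41 to -0.19). *Atp6v0a4*, the form of the kidney, had 33 and 15 UMIs. The a3 form, encoded by *Tcirg1* and found in lysosomes of macrophages and osteoclasts, bears a name that the selection did not take. It had 196 CPM in control and 223 CPM in telmisartan macrophages (0.19, 0.14 to 0.24), so its ratio lay on the other side of 0 from those of a1 and a2. The d subunit joins the ring to the central stalk. Its common form *Atp6v0d1* had 151 and 175 CPM (0.21, 0.15 to 0.26). Its form known from osteoclasts and fusing macrophages, *Atp6v0d2*, had 420 and 404 UMIs, 11.01 and 14.3 CPM (0.37, 0.17 to 0.57), but stood at -0.10 in thinned cells.

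In the V1 sector, 6 of 9 measured genes were higher and 3 lower, while 57.2% of all genes were lower. By at least 0.25, 1 was lower and 1 higher, against 19.2% and 16.3% of all genes. The sum was 1387 and 1429 CPM (0.04, 0.02 to 0.06, and -0.01 in thinned cells). The catalytic head alternates subunits A and B. *Atp6v1a* had 202 CPM in control and 221 CPM in telmisartan macrophages (0.12, 0.07 to 0.17), and *Atp6v1b2*, the B form of most tissues, had 248 and 255 CPM (0.04, -0.01 to 0.08). *Atp6v1c1* encodes the C subunit, which clamps V1 onto V0 and is released when the pump is taken apart. It had the highest ratio among the 9 measured V1 genes, 93.7 CPM in control and 119 CPM in telmisartan macrophages (0.34, 0.27 to 0.41). The stator genes *Atp6v1e1* (219 and 211 CPM) and *Atp6v1g1* (218 and 202 CPM) had ratios of -0.05 and -0.11. *Atp6v1g2*, the G form of neurons, had 122 and 63 UMIs (-0.53, -0.99 to -0.07). The remaining V1 genes *Atp6v1d*, *Atp6v1f* and *Atp6v1h* lay between 0.03 and 0.14, with *Atp6v1f* and *Atp6v1h* at -0.10 and -0.09 at the lowest of the other settings tried.

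Accessory and assembly proteins of the pump gave a mixed picture. The list of 8 genes, which also holds *Tcirg1*, summed to 883 CPM in control and 881 CPM in telmisartan macrophages, with 6 lower and 2 higher. The 7 genes without *Tcirg1* summed to 687 and 658 CPM (-0.06, -0.09 to -0.04), with 6 lower and 1 higher and a median of -0.08, where 57.2% of all genes were lower. Past 0.25 were *Rogdi* (288 and 159 UMIs, -0.43), a subunit of the RAVE-like complex that reassembles V1 with V0, and *Ncoa7* (31.9 and 25.1 CPM, -0.35), whose product binds the pump. Of the 8 genes, 2 were lower and 0 higher by that much, against 19.2% and 16.3% of all genes.

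The cysteine cathepsins made up most cathepsin transcripts. They summed to 10095 CPM in control and 9634 CPM in telmisartan macrophages (-0.07, -0.07 to -0.06), with 6 of 9 measured genes lower and 3 higher, near the 57.2% of all genes that were lower. *Ctss* had 3805 and 3528 CPM (-0.11, -0.12 to -0.10), and *Ctsc* had 2893 and 2203 CPM (-0.39, -0.41 to -0.38). *Ctsb* went the other way, with 1745 and 2173 CPM (0.32, 0.30 to 0.33). The make-up of the cathepsin pool differed accordingly. *Ctsc* supplied 26.5% of cathepsin UMIs in control and 20.8% in telmisartan macrophages, *Ctsb* 16.0% and 20.5%, and *Ctss* 34.9% and 33.4%. On the scale of UMIs per cell *Ctsc* was at -0.80 and *Ctsb* at -0.09, either side of the all-gene median of -0.46.

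*Ctsl*, a further endopeptidase, had 764 CPM in control and 862 CPM in telmisartan macrophages (0.17, 0.15 to 0.20). The carboxypeptidase *Ctsz* (512 and 495 CPM) and the aminopeptidase *Ctsh* (344 and 347 CPM) differed little, at -0.05 and 0.01. *Ctso* had 866 and 492 UMIs, 22.7 and 17.4 CPM (-0.39, -0.55 to -0.23), and the scarce *Ctsf* 63 and 41 UMIs (-0.19, -0.80 to 0.40). *Ctsk*, the collagen-degrading cathepsin of osteoclasts, had 279 UMIs in control and 148 in telmisartan macrophages (-0.49, -0.78 to -0.19). That difference rested on 1 control cell, which held 119 of the 427 *Ctsk* UMIs among 13082 UMIs in all. Examined after its *Ctsk* count was seen, this cell also carried 40 UMIs of the osteoclast phosphatase gene *Acp5* and 58 UMIs of the gelatinase gene *Mmp9*. Without it the *Ctsk* ratio was 0.32 (-0.02 to 0.65), with the gene found in 81 control cells including that one and 95 telmisartan cells.

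Of the aspartic cathepsins, *Ctsd* was the abundant one and *Ctse* the scarce one. *Ctsd* had 309 CPM in control and 380.2 CPM in telmisartan macrophages (0.30, 0.26 to 0.34), and *Ctse*, a form of endosomes, had 98 and 60 UMIs (-0.28, -0.77 to 0.20). The sum of both had a ratio of 0.30, above 0 on all scales tried but UMIs per cell (-0.11, still above the median there). Of the serine cathepsins, *Ctsa*, a carboxypeptidase that also shields lysosomal neuraminidase and beta-galactosidase, had 503 CPM in control and 561 CPM in telmisartan macrophages (0.16, 0.13 to 0.19).

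Cystatins and stefins block cysteine cathepsins. Of the 7 inhibitor genes, 3 had at least 100 UMIs in macrophage-like cells. All 3 had negative ratios, as did 57.2% of all genes. The secreted cystatin *Cst3* had 1668 CPM in control and 1563 CPM in telmisartan macrophages (-0.09), the cytosolic stefin *Cstb* had 882 and 793 CPM (-0.15), and *Cst7* had 71 and 41 UMIs (-0.36, -0.96 to 0.21). The stefin *Stfa3* had 43 and 5 UMIs, 37 of them in 1 control cell, and 6 and 5 UMIs without it (0.16, -1.89 to 2.14). The list summed to 2553 and 2358 CPM (-0.11, -0.13 to -0.10). The membrane proteins *Lamp1*, with 664 and 649 CPM (-0.03, -0.06 to -0.00), and *Lamp2*, with 449 and 412 CPM (-0.12, -0.16 to -0.09), were also close to the all-gene median.

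Reclustering of the macrophage-like cells, with the 43 genes kept out of the genes used for clustering, gave 6 subclusters. Subcluster 1 (2920 cells, median 8260 UMIs) was led by *Tnfsf15*, after a stefin gene, *Stfa3*, that had 77.1% of its 48 UMIs in 1 cell. Subcluster 2 (1993 cells, 2792 UMIs) was led by *Cxcl5* and the interferon-induced *Ifit3b*. Subcluster 3 (1538 cells, 8650 UMIs) was led by *Gas6*, *Htr2b* and the pump gene *Atp6v0d2*, and subcluster 5 (622 cells, 8867 UMIs) by *Serpina3g*, with *Cxcl9* also among its leading genes. Subclusters 4 (720 cells) and 6 (256 cells) were led by mitotic genes and by genes of S phase, with medians of 13239.5 and 13709 UMIs. Differences among them are descriptions, since the same cells formed the subclusters.

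Lysosomal transcripts were highest in subcluster 3. Cathepsins summed to 14107 CPM there, 12284 CPM in subcluster 5, and 10056, 9685, 9520 and 9064 CPM in subclusters 6, 1, 4 and 2. The highest was 1.56 times the lowest (1.54 to 1.57). The V-ATPase varied less, from 2513 CPM in subcluster 3 to 1996 CPM in subcluster 4, a ratio of 1.26 (1.24 to 1.28). *Lamp1* and *Lamp2* together ran from 1305 CPM in subcluster 3 to 936 CPM in subcluster 2. In each group taken alone, subcluster 3 was again the highest for the cathepsins and for the V-ATPase. Of the 27 members with at least 200 UMIs, 13 (48.1%) were highest in subcluster 3, against 18.5% of the 10012 genes with that many UMIs, and 9 (33.3%) in subcluster 5, against 9.598%. None was lowest in subcluster 3, against 7.90% of all genes. Taken by group, subcluster 3 was the highest for 14 members in each, against 19.02% of all genes in control and 16.2% in telmisartan macrophages. Subcluster 5 was the highest for 9 members in control, against 9.51% of all genes. In telmisartan macrophages it was so for 5 (18.5%), nearer to the 12.3% of all genes.

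**Figure D2:**
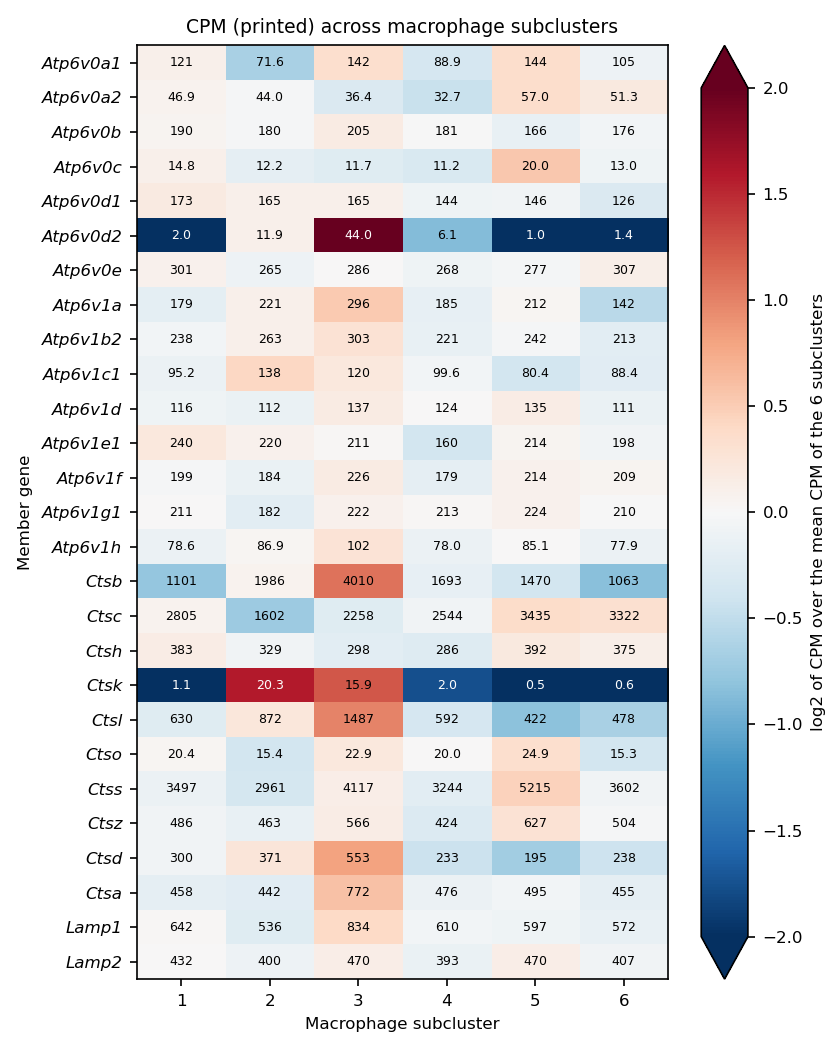
CPM of 27 members (y axis) in the 6 macrophage subclusters (x axis), both pools together, printed in each cell and colored by the log2 of CPM over the mean of the 6 subclusters (color scale limited to -2 and 2). *Atp6v0d2*, *Ctsb*, *Ctsl* and *Ctsd* are highest in subcluster 3 (44.0, 4010, 1487 and 553 CPM), while *Ctss* is highest in subcluster 5 (5215 CPM).

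*Atp6v0d2* was the most uneven gene of the pump. Subcluster 3 held 614 of its 824 UMIs, at 44.0 CPM against 1.02 CPM in subcluster 5, a ratio of 43.0 (19.6 to 118). Its sister gene *Atp6v0d1* stayed between 126 and 173 CPM in all 6 subclusters. *Atp6v1a* was next, with 296 CPM in subcluster 3 and 142 CPM in subcluster 6 (2.08 times), followed by *Atp6v0a1*, with 144 CPM in subcluster 5 and 71.6 CPM in subcluster 2 (2.01 times), though in control cells alone it was highest in subcluster 3.

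Among cathepsins, *Ctsk* spanned the widest range, from 0.51 CPM in subcluster 5 to 20.3 CPM in subcluster 2, a ratio of 39.6 (13.3 to 194). In subcluster 3 it had 15.9 CPM with the control cell rich in it and 7.39 CPM without. *Ctsb* ran from 1063 CPM in subcluster 6 to 4010 CPM in subcluster 3 (3.77 times) and *Ctsl* from 422 CPM in subcluster 5 to 1487 CPM in subcluster 3 (3.53 times). *Ctsd* followed the same course, with 553 CPM in subcluster 3 and 195 CPM in subcluster 5. *Ctss* and *Ctsz* instead were highest in subcluster 5 in both groups. *Ctsc* had 3435 CPM there, 2258 CPM in subcluster 3 and 1602 CPM in subcluster 2, both pools together. By group, *Ctsc* and *Ctsh* were highest in subcluster 5 in control and in subcluster 6 in telmisartan cells. The pools of the subclusters thus differed in kind, *Ctsb* supplying 28.4% of cathepsin UMIs in subcluster 3 and 10.6% in subcluster 6, and *Ctss* supplying 42.5% in subcluster 5. Cathepsin UMIs per V-ATPase UMI were fewest in subcluster 2 (4.32 in control and 4.12 in telmisartan cells). They were most in subcluster 5 in control (5.69, with 5.597 in subcluster 3) and in subcluster 3 in telmisartan cells (5.63, with 5.03 in subcluster 5).

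The pools contributed unequally to the subclusters, with 721 control and 1272 telmisartan cells in subcluster 2 and 453 and 169 cells in subcluster 5, so the ratios over all macrophage-like cells also carry that mix. Within subclusters, *Ctsb* was higher with telmisartan in 6 of 6, with log2 ratios from 0.07 to 0.29 and every interval above 0, though each was below the 0.32 of all macrophage-like cells. *Ctsc* was lower in 6 of 6, from -0.39 to -0.13, with every interval below 0. *Atp6v1c1* was higher in 6 of 6, from 0.23 to 0.52, with 5 intervals above 0. These 3 genes were named for the size of their ratios over the same cells, so their signs in the subclusters are no separate support. *Atp6v0b*, *Atp6v0d1* and *Ctsh* were also higher in all 6 subclusters, with 3, 4 and 1 intervals above 0, *Ctsh* by no more than 0.15. *Atp6v0a2*, *Atp6v0c* and *Atp6v0e* were lower in all 6, with 4, 1 and 3 intervals below 0. No share of all genes with 1 sign in all 6 subclusters, or with such intervals, is given, so these counts do not set the members apart.

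Several of the other members differed in direction from subcluster to subcluster. *Ctsd* was at -0.04 in subcluster 1 and 0.00 in subcluster 2, against 0.41 in subcluster 3, 0.46 in subcluster 4, 0.25 in subcluster 5 and 0.73 in subcluster 6. *Ctsl* ranged from -0.19 in subcluster 2 to 0.42 in subcluster 5. *Atp6v0d2* was at 0.32 in subcluster 3, where most of its UMIs lay, and at -1.30 and -1.29 in subclusters 1 and 4. *Ctsk* was at -1.60 in subcluster 3, and at 0.08 (-0.51 to 0.67, 54 and 49 UMIs) once the 1 control cell rich in it was left out. The family sums stayed narrow, from -0.01 to 0.07 for the V-ATPase and from -0.13 to 0.04 for the cathepsins.

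Among the 4 classes of cells, cathepsins were highest in macrophage-like cells and the pump in neutrophil-like cells. Macrophage-like cells had 10767 CPM of cathepsins, dendritic-like cells 5819, neutrophil-like cells 3816 and T-like cells 3697. In the same order the V-ATPase summed to 2227, 1794, 3079 and 1389 CPM, and *Lamp1* with *Lamp2* to 1091, 538, 827 and 346 CPM. Macrophage-like cells thus held 4.83 cathepsin UMIs for each pump UMI and neutrophil-like cells 1.24. These classes differ in depth, and among cells of fewer than 2500 UMIs the cathepsins stood at 5998 CPM in macrophage-like, 3288 in dendritic-like, 2783 in neutrophil-like and 1737 in T-like cells. The V-ATPase stood at 1917, 1659, 3104 and 1054 CPM in these cells, and cathepsin UMIs per pump UMI at 3.13 in macrophage-like and 0.896 in neutrophil-like cells. The order of the classes was thus the same for both sums in shallow cells. Of the 549 cathepsin UMIs of neutrophil-like cells, 190 lay in 2 control cells of at least 5000 UMIs. Transcripts typical of macrophages were also counted in the other classes. *Lyz2*, a lysozyme gene of macrophages and other myeloid cells, was detected in 98.4%, 87.0%, 74.1% and 69.4% of macrophage-like, dendritic-like, T-like and neutrophil-like cells, and *C1qa*, a complement gene of macrophages, in 51.2%, 17.5%, 14.1% and 2.78%, at median depths of 7555, 6979, 3286 and 1769 UMIs. Whether these came from free RNA, from doublets or from the cells themselves was not tested, and the share of free RNA in member UMIs was not estimated.

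**Figure D3:**
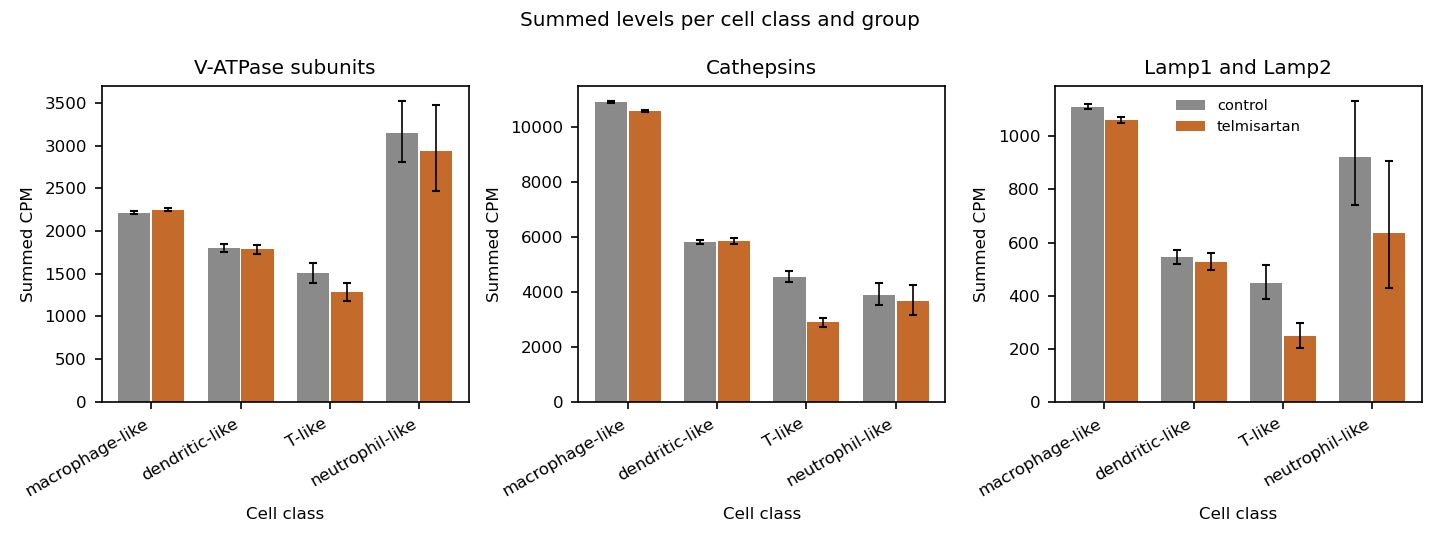
Summed CPM (y axis, from 0) of the V-ATPase genes, the cathepsins, and *Lamp1* with *Lamp2* in each class of cells (x axis), in control (grey) and telmisartan (orange) pools, with bars for exact Poisson 95% intervals. Cathepsin sums of 10909 and 10577 CPM in macrophage-like cells stand above those of the other classes, and the widest gap between the pools is in T-like cells, with 4542 and 2881 CPM.

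Some members were at least 2 times as high outside the macrophages. *Ctsw*, a cathepsin of cytotoxic lymphocytes, had 199 CPM in T-like cells (177 UMIs, in 42.7% of cells) and 0.62 CPM in macrophage-like cells. *Ctsg* in T-like cells was the count of essentially 1 cell, with 23 of its 25 UMIs. *Atp6v0a2* had 104 CPM in dendritic-like and 43.4 CPM in macrophage-like cells. In neutrophil-like cells *Atp6v0d2* had 306 CPM (44 UMIs, in 13 cells), against 12.4 CPM in macrophage-like cells, and *Atp6v1c1* had 215 against 104 CPM. These genes were named by that limit, with at least 20 UMIs in the class, so the direction was fixed by the choice. Dendritic-like cells kept *Ctss* near the macrophage level (3036 CPM) but had 442 CPM of *Ctsb* and 65.5 CPM of *Ctsd*, against 1928 and 339 CPM in macrophage-like cells. They carried instead the inhibitor *Cst3*, at 10848 CPM against 1623 CPM.

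In dendritic-like cells some ratios had the sign seen in macrophages and others the opposite one. *Ctsc* was at 1219 CPM in control and 976 CPM in telmisartan dendritic-like cells (-0.32, -0.40 to -0.24), *Ctsb* at 416 and 477 CPM (0.20, 0.08 to 0.32) and *Ctsd* at 56.1 and 78.7 CPM (0.49, 0.17 to 0.81). *Atp6v0a2*, at -0.30 in macrophages, had 98.6 and 112 CPM here (0.18, -0.07 to 0.44). The class joined 3 clusters, however, and the signs depended on them. *Ctsc* was lower in the largest (249 and 210 cells, -0.44, -0.53 to -0.35) and higher in the others (64 and 48 cells, 0.51, 0.11 to 0.90, and 53 and 39 cells, 0.28, 0.05 to 0.51). In the same order *Atp6v0a2* was at -0.17 (-0.51 to 0.17), 0.43 (-0.87 to 1.71) and 0.53 (0.10 to 0.96), so in the largest cluster both genes had the sign seen in macrophages. *Ctsb* was at 0.24 (0.10 to 0.38), -0.26 (-0.72 to 0.19) and 0.25 (-0.06 to 0.57), again in that order. *Ctsd* was at 0.49 (0.14 to 0.85), -0.65 (-2.78 to 1.14) and 0.76 (-0.12 to 1.65). In dendritic-like cells thinned to 1000 UMIs, however, *Ctsb* had a UMI in 32.9% of control (28.1 to 37.96%) and 26.3% of telmisartan cells (21.3 to 31.7%), so level and share differed in direction. The cathepsin sum of all dendritic-like cells had a ratio of 0.01 (-0.03 to 0.04), but among those of fewer than 5000 UMIs it was 0.26 (0.15 to 0.37). In the 3 clusters, in the order above, it was at -0.04 (-0.08 to -0.00), 0.08 (-0.04 to 0.21) and 0.31 (0.22 to 0.40). Summed over whole classes, *Ctsc* was also lower in neutrophil-like (-0.94) and T-like cells (-0.83), and so were macrophage markers in the 3 classes other than macrophages. Deeper cells weighed on these sums. Among cells of fewer than 5000 UMIs, *Ctsc* was at -0.02 (-0.29 to 0.25) in dendritic-like, 0.43 (-0.35 to 1.25) in T-like and 0.71 (-0.41 to 1.82) in neutrophil-like cells, the last without the 2 control cells named above, so its lower level outside the macrophages was not seen in shallow cells. Over whole classes the sum of 12 macrophage markers was at 3546 and 2831 CPM in dendritic-like cells (-0.32, -0.37 to -0.28), with 9 of 12 lower and *Lyz2* the most abundant, and at 3892 and 1693 CPM in neutrophil-like cells (-1.20, -1.57 to -0.85), with 11 of 12 lower. Among cells of fewer than 5000 UMIs it was at 0.05 (-0.09 to 0.20) and -0.10 (-0.51 to 0.30). In the 3 dendritic-like clusters, in the order above, that sum was at -0.35, -0.56 and 0.20. T-like cells stood apart, with 6493 CPM of all 43 genes in control (72 cells) and 4408 CPM in telmisartan cells (113 cells), a log2 ratio of -0.56 (-0.64 to -0.48). Among T-like cells of fewer than 5000 UMIs (44 and 83 cells) it was -0.16 (-0.35 to 0.03). Median depths of all control and telmisartan T-like cells were 3912 and 3001 UMIs. The 12 markers summed to 6098 CPM in control and 4006 CPM in telmisartan T-like cells (-0.61, -0.69 to -0.52), with 10 lower and 2 higher and all 12 found in both groups, *Lyz2* being the most abundant at 2630 and 1655 CPM, and below 5000 UMIs they were at -0.69 (-0.95 to -0.43). The part of such transcripts in the lower member levels of these classes was not tested. *Ctsw*, in contrast, had 153 CPM in control and 243 CPM in telmisartan T-like cells (0.66, 0.21 to 1.13).

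The T-like ratios also carry a mix of cells. A cluster led by the granzyme gene *Gzmc*, with *Prf1* of cytotoxic cells among its leading genes, made up 50 of the control and 92 of the telmisartan T-like cells, and a cluster led by *Izumo1r* and *Foxp3* of regulatory T cells the remaining 22 and 21. All but 1 of the 177 *Ctsw* UMIs lay in the former, at 223 CPM in control and 326 CPM in telmisartan cells (0.54, 0.09 to 1.01). All 43 genes together had 5157 and 3834 CPM in that cluster (-0.43, -0.54 to -0.32) and 9403 and 6026 CPM in the regulatory one (-0.64, -0.78 to -0.51). The sum of macrophage markers was at -0.52 in the former and -0.56 in the latter. The sums of members and of markers were thus lower in both clusters of T-like cells. Single genes could be higher, as were *Ctsw* in the former and the marker *Cd86* in both (0.66 and 0.80).

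Between macrophages of different depth, the cathepsin level differed more than the pump level. Subclusters also differ in depth, and the part of each was not tested. In control macrophages of fewer than 2500 UMIs the cathepsins had 5890 CPM, and the level was 8179, 10640.1 and 11366 CPM in cells of 2500 to 5000, 5000 to 10000 and at least 10000 UMIs. In the same order the V-ATPase had 1804, 2047, 2190 and 2245 CPM. Within these bins the log2 ratio of the cathepsin sum was 0.04, -0.03, 0.00 and 0.03, and that of the V-ATPase sum 0.14, 0.04, 0.04 and 0.03. With every macrophage thinned to 1000 UMIs (4004 control and 3927 telmisartan cells), *Ctsc* had a UMI in 82.4% of control (81.2 to 83.6%) and 75.6% of telmisartan cells (74.2 to 76.9%). *Ctsb* had one in 68.3% (66.8 to 69.7%) and 71.3% (69.9 to 72.7%). Before thinning the shares were 95.2% and 92.2% for *Ctsc* and 95.2% and 94.1% for *Ctsb*, so for *Ctsb* the direction of the share differed between full and equal depth. T-like cells thinned alike had a *Ctsc* UMI in 29.4% of 68 control and 25.0% of 104 telmisartan cells.

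Other lysosomal genes were counted from lists of pathway genes. Of 30 hydrolases and carriers, 14 were lower and 16 higher, with a median of 0.03, while 57.2% of all genes were lower. Past 0.25 were the sulfatase gene *Ids* (-0.52) and the thioesterase gene *Ppt1* (-0.26) below, and *Gla* (0.83), *Lgmn* (0.28) and the phospholipase gene *Pla2g15* (0.26) above. Those are 2 and 3 of the 30, where 19.2% of all genes were lower and 16.3% higher by that much. *Gla*, which encodes the galactosidase lacking in Fabry disease, had 77.4 CPM in control and 137 CPM in telmisartan macrophages (0.76 to 0.90), and was the only gene of that list above 0 also as UMIs per cell (0.42). *Lgmn* encodes an asparaginyl endopeptidase that processes several cathepsins, and it had 407 and 493 CPM. Of 12 lysosomal membrane genes, 4 were lower and 8 higher, against 57.2% lower among all genes. By at least 0.25, 0 were lower and 3 higher, against 19.2% and 16.3% of all genes. The sum was 3527 and 3877 CPM (0.14, 0.13 to 0.15). The metal transporter *Slc11a1* had 136 and 189 CPM (0.48, 0.42 to 0.53), and the cholesterol exporters *Npc1* and *Npc2* both had ratios of 0.27.

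The MiT factors TFEB, TFE3, MITF and TFEC bind the promoters of many lysosomal genes. *Tfeb* had 10.2 CPM in control and 11.8 CPM in telmisartan macrophages (0.21, -0.00 to 0.43), *Tfe3* 44.9 and 49.7 CPM (0.14) and *Mitf* 80.7 and 88.8 CPM (0.14). *Tfec*, the form of the macrophage lineage, had 59.9 and 49.7 CPM (-0.27, -0.37 to -0.17). In thinned cells *Tfec* stood at 0.02, and *Mitf* stood at -0.11 among cells of 5000 to 10000 UMIs. Of the receptors that sort hydrolases to lysosomes, *M6pr* had 422 and 379 CPM (-0.16), *Igf2r* 39.0 and 39.4 CPM (0.02) and *Sort1* 312 and 296 UMIs (0.35, 0.12 to 0.59, and 0.03 in thinned cells). The 5 Ragulator genes, which anchor mTORC1 signaling at the lysosome, summed to 397 and 383 CPM (-0.05, and 0.05 in thinned cells), and among them *Lamtor5* had 61.2 and 49.2 CPM (-0.32).

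The members lie scattered over 18 chromosomes of GRCm38, with positions taken from GENCODE M21. *Ctsb* is on chromosome 14 (63122462 to 63145923), *Ctsc* on chromosome 7 (88278085 to 88310888), *Ctsd* on the same chromosome (142375911 to 142388038), *Atp6v1c1* on chromosome 15 (38661933 to 38692446) and *Atp6v0d2* on chromosome 4 (19876841 to 19922605). *Ctsk* and *Ctss* are neighbors on chromosome 3, 17423 bases apart, and yet peaked in different subclusters. The placental cathepsins *Ctsj*, *Ctsq*, *Ctsr* and *Ctsm* lie together on chromosome 13.

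A feature that the selection by name did not use is a short promoter motif. The MiT factors recognize the palindrome CACGTG, best within the longer palindrome TCACGTGA. Promoter windows of RefSeq on GRCm38.p6, from 250 bases before to 50 bases after a start of transcription, were at hand for 33 of the 43 members and for 27025 genes in all. CACGTG occurred in the windows of 9 of 33 members (27.3%), against 8.09% of all genes (7.15% of all 32851 windows). TCACGTGA, which contains it, occurred for 5 of 33 members (15.2%), *Atp6v0d1*, *Atp6v0e*, *Atp6v1a*, *Ctsa* and *Ctsd*, against 1.12% of all genes. Both motifs read the same on either strand. Of the 37 member windows, 34 start within 100 bases of a transcript start in GENCODE, but that need not be the outermost start of the gene, the window of *Atp6v0e* lying 13165 bases inside it and the *Ctsa* window with the motif 900.0 bases. Among the 17 members with windows and at least 1000 UMIs in macrophage-like cells, 8 held CACGTG. No share is given for other genes at that level, so this count has no like background. Of the 25 listed hydrolases and carriers with windows, 6 held CACGTG and 1 held TCACGTGA. Member windows had a median GC content of 56.0%, against 52.7% for all windows. A match describes letters in a window and says nothing of binding.

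The 250 bases before these starts are shown for 3 members, with CACGTG in capitals: *Lamp1*, which had 4 matches, the most of any member (chr8:13158911-13159160, plus strand), *Ctsd*, which had 2 (chr7:142387828-142388077, minus strand), and *Atp6v1a* of the catalytic head, which had 1 (chr16:44139260-44139509, minus strand). In the last of these, and at the second match of *Ctsd*, the capitals are part of the longer palindrome.
Lamp1: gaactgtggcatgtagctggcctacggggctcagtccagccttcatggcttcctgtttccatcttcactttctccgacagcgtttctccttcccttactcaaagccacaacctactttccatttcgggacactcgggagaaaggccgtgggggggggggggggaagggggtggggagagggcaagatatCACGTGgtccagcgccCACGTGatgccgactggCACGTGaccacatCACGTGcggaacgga
Ctsd: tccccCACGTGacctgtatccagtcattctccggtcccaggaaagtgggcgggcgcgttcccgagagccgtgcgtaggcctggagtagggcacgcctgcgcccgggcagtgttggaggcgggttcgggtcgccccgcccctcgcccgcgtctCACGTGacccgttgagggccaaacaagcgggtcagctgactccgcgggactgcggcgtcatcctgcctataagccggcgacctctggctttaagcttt
Atp6v1a: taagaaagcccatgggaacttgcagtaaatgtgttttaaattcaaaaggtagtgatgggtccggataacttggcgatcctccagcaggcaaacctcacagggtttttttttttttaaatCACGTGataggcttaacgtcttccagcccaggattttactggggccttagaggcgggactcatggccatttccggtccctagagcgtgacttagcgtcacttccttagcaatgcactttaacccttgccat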

How the data were processed

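The authors deposited counts of UMIs per gene and putative cell and counts of Sample Tag reads, made with version 1.11 of the BD Rhapsody WTA pipeline with the genes of GENCODE M19 on GRCm38, counting intronic reads and applying RSEC correction. A cell was assigned to a tag that held at least 75% of its tag reads (at least 10), and kept with 150 to 5000 genes and at most 20% mitochondrial UMIs. Of the putative cells, 20726 in all, 5078 control and 4833 telmisartan cells met this, and 1580 with mixed tags were left out. Scrublet (scanpy 1.11.5, Python 3.11.15, numpy 2.4.6, scipy 1.17.1, pandas 2.3.3) marked 0 doublets by its own threshold, so the 942 highest scores (9.51%, from the rate of mixed tags) were removed. Seurat 5.3.0 under R 4.3.3 clustered cells on 2000 variable genes without the members, 30 components, 20 neighbors and a resolution of 0.5. The dendritic-like, T-like and neutrophil-like classes needed 3 markers at 4 times the level of other cells. Macrophage-like clusters were the remaining ones, with 0 or 1 markers at that level and all 12 macrophage markers detected. The lowest resolution giving at least 6 macrophage subclusters was taken.

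Intervals are exact Poisson for UMI sums, Clopper-Pearson for shares and conditional binomial for ratios, tested on simulated data. Genes with at least 100 UMIs were compared by size. Genes named were the 3 most abundant of each role, the 3 highest and 3 lowest ratios among members with at least 200 UMIs, subunit isoforms, members 2 times as high in another class with at least 20 UMIs there, the most uneven members over subclusters, and pathway lists. Members and lists were chosen with earlier results of these data known, and *Mmp9*, the cells rich in *Ctsk* or *Ctsg*, *Ctsf*, *Ctsh*, *Ctso*, *Ctsz*, *Atp6v1d*, *Atp6v1f* and *Atp6v1h* were named after their values were seen. The values of other classes by depth and by cluster were added after seeing the data. Alternatives covered filters, doublets, resolutions and scalings, among them TMM factors from edgeR 4.0.16.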

Additional observations from a re-analysis of the deposited data

Results flagged for a closer look

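Ratios of opposite sign in a pair of cell types drew attention to 3 genes, where both ratios rested on at least 200 UMIs, were past 0.25 and had a counting interval clear of 0. The pairs were macrophage-like cells with each other class, and the macrophage subclusters. No share of all genes meeting this rule is given, so the flags do not set these genes apart. *Ctsb* had a log2 ratio of telmisartan over control of 0.32 in macrophage-like cells, against -0.70 in T-like cells (503 and 321 UMIs). *Ctsd* had 0.30 in the former and -0.64 in the latter (120 and 80 UMIs), where T-like cells of fewer than 5000 UMIs had -0.27 (-1.08 to 0.57), against -1.02 for *Ctsb*. The sum of 12 macrophage markers had a ratio of -0.61 in all T-like cells and -0.69 (-0.95 to -0.43) in those of fewer than 5000 UMIs. *Atp6v0a1* had 0.31 in macrophage subcluster 2 (179 and 362 UMIs) and -0.32 in subcluster 3. With 1 pool per group, none of these differences between cell types was tested.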

How the results depend on the processing

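For single genes, 27 members were recomputed under 15 alternatives, 405 ratios in all. As UMIs per cell, every one of the 27 shifts alike by -0.41, which fixes the outcome of that alternative. Of the 378 ratios under the other 14, 315 stayed within the counting interval of the value reported, 58 moved outside it and 5 changed sign from a ratio past 0.25. Over the planned ones of these 14, 20 members kept 1 sign, and 7 (*Atp6v0d2*, *Atp6v1f*, *Atp6v1h*, *Ctsh*, *Ctsk*, *Ctsz* and *Lamp1*) did not. Of the 9 members past 0.25 among those with at least 200 UMIs, 7 kept their sign on every planned setting other than UMIs per cell, and 4 (*Atp6v0c*, *Atp6v1c1*, *Ctsc* and *Ctso*) also stayed past 0.25. Over those settings *Ctsb* ran from 0.21 to 0.40, *Ctsd* from 0.22 to 0.36 and *Ctsc* from -0.44 to -0.28.

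The reported values were log2 ratios of 0.02 for the V-ATPase and -0.04 for the cathepsins, 7 members lower and 4 higher, and subcluster ratios of 1.26 and 1.56. As UMIs per cell, where the median of all genes was -0.46, the V-ATPase was at -0.39 and the cathepsins at -0.46. On that scale 23 members were lower and 0 higher by at least 0.25, against 77.0% and 3.68% of all genes. There *Atp6v0d2* (-0.038), *Atp6v1c1* (-0.069), *Ctsb* (-0.094) and *Ctsd* (-0.11) were below 0. In cells thinned to 1000 UMIs the sums were at -0.033 and -0.092 and *Atp6v0d2* was at -0.10. By at least 0.25, 2 members were higher in thinned cells, against 22.5% of all genes. In cells of 5000 to 10000 UMIs the sums were at 0.044 and -0.0010 and *Ctsk* was at 0.66. Among these cells 4 members were lower by at least 0.25, against 18.5% of all genes. With at least 500 UMIs per gene 4 members were lower by at least 0.25, against 17.2% of all genes. The cathepsin sum was at -0.053 with a tag share of at least 90%, 0.0078 with at most 10% mitochondrial UMIs, -0.018 without the cluster of the lowest median UMI count, -0.035 on totals without mitochondrial and ribosomal protein genes, -0.055 with TMM factors and -0.093 as a mean over cells. *Ctsk* was at 0.11 with the stricter tag share, 0.32 with the stricter mitochondrial limit and 0.32 without the 1 cell richest in it, an alternative chosen after seeing the data. The cause of these shifts was not tested, save that the 1 cell accounts for the last.

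The subcluster ratio of the V-ATPase was 1.296 with members among the variable genes and 1.39 with subclusters at a resolution of 0.8. The run with members among the variable genes gave 7 subclusters at a resolution of 0.45, against 6 at 0.35 in the reported one. Its ratios thus span more subclusters. For the cathepsins it was 1.65 without doublet removal, 1.48 without the cluster of the lowest median UMI count, 1.74 with members among the variable genes, 1.59 and 2.18 with subclusters at 0.3 and 0.8, 1.62 on totals without mitochondrial and ribosomal protein genes and 1.88 as a mean over cells.

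No paired analysis was possible because each group was 1 pool of 5 mice, and differences among mice, in handling or in depth cannot be told apart from treatment. Depth limits what can be seen of scarce members, a count of 3 being 0.0451 CPM in macrophage-like, 3.37 CPM in T-like and 20.9 CPM in neutrophil-like cells. Free RNA was not removed. Transcript levels say nothing of protein, maturation or acidity, and growth of the tumors was not examined.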
